A study of Arabidopsis thaliana with 12 samples.

Results

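PDF1.2, PDF1.2b, MYC4 and ORA47 are 4 genes of the jasmonate response of Arabidopsis thaliana, and their transcripts were followed in leaves of the cs26 mutant and of wild type in long and in short days. The 4 genes were picked by name, each with the 1 probe set that names it alone, out of 22746 probe sets tested. They were picked with results of these same arrays in view, so every value of the 4 is a description and none of them carries a test. The wild type was accession Col-0. The mutant was cs26 (SALK_034133), a single insertion line of a gene whose product the series title describes as an S-sulfocysteine synthase of the chloroplast. Plants stood in soil with Hoagland medium, in long days (16 h light, 8 h dark) until 3 weeks of age or in short days (8 h light, 16 h dark) until 5 weeks, so age and day length changed together in all comparisons of the photoperiods. Each of the 4 groups has 3 Affymetrix ATH1 arrays, called biological replicates by the submitters, and that number limits the precision. Values are log2 expression after RMA, a method that corrects background, gives all arrays the same distribution and combines the probes of a probe set.

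Jasmonate is a lipid-derived hormone of wounding and defence. Its conjugate with isoleucine binds the receptor COI1, JAZ repressor proteins are then broken down, and the transcription factors they held are freed. One branch runs through the bHLH factors MYC2, MYC3 and MYC4 and serves wound and herbivore responses and glucosinolate synthesis. The other runs through ERF factors, needs ethylene as well, and ends in antifungal proteins such as the plant defensins, of which PDF1.2 is the usual marker. ORA47 is an AP2/ERF factor that responds to jasmonate itself and, when overexpressed, raises genes of jasmonate synthesis. Salicylate, the hormone of resistance to biotrophic pathogens, is known to hold PDF1.2 down.

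Array medians lay between 5.42 and 5.51. Replicate 2 of wild type in long days read 9.64 for the 25S ribosomal RNA control probe set, against 4.53 to 5.12 on the other arrays. The array of cs26 in short days numbered 2 deviated most from its group (SD 0.208 across probe sets, and 0.104 to 0.155 on the other 11). The 12 Bacillus control probe sets averaged 7.03 to 7.21 in wild type and 6.47 to 6.71 in cs26 in long days, and 5.66 to 5.69 and 5.59 to 6.20 in short days. Their part in the results was not tested. The mutated gene has no probe set here that names it alone, so its level could not check the labels. RCA, the Rubisco activase gene of green tissue and the 1 measured of 10 leaf mesophyll markers, read 13.03 to 14.06 on all arrays. EXPA7, a root hair gene and the 1 measured of 10 root markers, read 4.42 to 5.03. Of 9 flower and seed markers 0 were measured. Of 10 guard cell markers 3 were measured, and their mean ran from 4.82 to 4.90 in wild type and 5.03 to 5.11 in cs26 in long days, and from 4.65 to 4.69 and 4.65 to 4.68 in short days. Among them the stomatal factor SPCH rose in cs26 in long days (0.36 ± 0.0864, adjusted p = 0.0073). Its means there, 3.95 in wild type and 4.31 in cs26, lie under the array medians. Between the photoperiods of wild type the 3 differed. FAMA was lower in short than in long days (-0.81 ± 0.118, adjusted p = 1.15e-04) and SPCH was not called (-0.07, adjusted p = 0.546). MUTE was higher (0.26 ± 0.0949, adjusted p = 0.041), a call that ended for 4 arrays left out in turn (0.0653 to 0.17). Its means, 4.04 in long and 4.30 in short days, also lie under the array medians. SWEET11, a sugar exporter of the phloem and the 1 measured of 10 vasculature markers, was lower in short-day than in long-day wild type (-1.09 ± 0.0711, adjusted p = 8.6e-08). The part of these markers in the results was not tested.

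Both defensin transcripts were higher in cs26 than in wild type in both photoperiods. PDF1.2 (AT5G44420, chromosome 5) encodes a secreted antifungal peptide. It read 8.26, 8.46 and 8.51 on the wild-type arrays in long days and 11.26, 11.37 and 11.25 on the cs26 arrays. In short days it read 6.80, 6.43 and 6.50 in wild type and 10.29, 9.78 and 10.41 in cs26. Every cs26 array therefore lay above every wild-type array, whichever photoperiod either came from. The mean was 2.88 ± 0.15 higher in cs26 in long days (log2, SE of the fit, n = 3 arrays per group), 7.38-fold. In short days it was 3.58 ± 0.15 higher, 12-fold. Ranked by size among the rises of all 22746 probe sets, these differences stood at place 65 in long days and place 3 in short days. The lowest PDF1.2 value of cs26 in short days came from replicate 2, the array with the large spread, and without it the short-day difference was 3.77.

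PDF1.2b (AT2G26020, chromosome 2) encodes a close relative of PDF1.2. Its probe set carries the suffix _x_at, which marks probes that can also bind related transcripts, so signal from PDF1.2 cannot be told apart from its own. It read 7.85, 8.24 and 8.34 in wild type in long days and 10.93, 11.02 and 11.17 in cs26. In short days it read 7.33, 7.44 and 6.55 in wild type and 9.75, 9.40 and 9.64 in cs26. Here too all 6 cs26 values lay above all 6 wild-type values. The difference was 2.90 ± 0.204 in long days (7.45-fold, place 63 of the rises), close to that of PDF1.2. It was 2.49 ± 0.204 in short days (5.62-fold, place 8), smaller than that of PDF1.2. Going from long to short days the cs26 effect was larger by 0.70 ± 0.213 for PDF1.2, whereas for PDF1.2b the change was -0.41 ± 0.289, and ran from -0.69 without short-day wild-type replicate 3 to -0.24 without replicate 2 of that group. The next gene to PDF1.2 on the chromosome is PDF1.2c, and next to PDF1.2b lies PDF1.3. Neither neighbour has a probe set here that names it alone.

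The defensins were also ordered by photoperiod within each genotype. In wild type, the short-minus-long difference of PDF1.2 was -1.83 on the log2 scale (8.41 ± 0.132 SD against 6.58 ± 0.197, n = 3), 3.56-fold lower. In cs26 it was -1.13 (11.29 ± 0.067 against 10.16 ± 0.335), 2.19-fold lower, and -0.94 without replicate 2 of cs26 in short days. For PDF1.2b it was -1.04 in wild type (8.14 ± 0.259 against 7.11 ± 0.485) and -1.44 in cs26 (11.04 ± 0.121 against 9.60 ± 0.179). Both genes thus had the same order of groups, from cs26 in long days through cs26 in short days and wild type in long days to wild type in short days. No neighbours in that order overlapped. The narrowest gap was 0.41, between the photoperiods of wild type for PDF1.2b, where replicate 3 in short days (6.55) lay under replicates 1 and 2 (7.33 and 7.44).

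**Figure D1:**
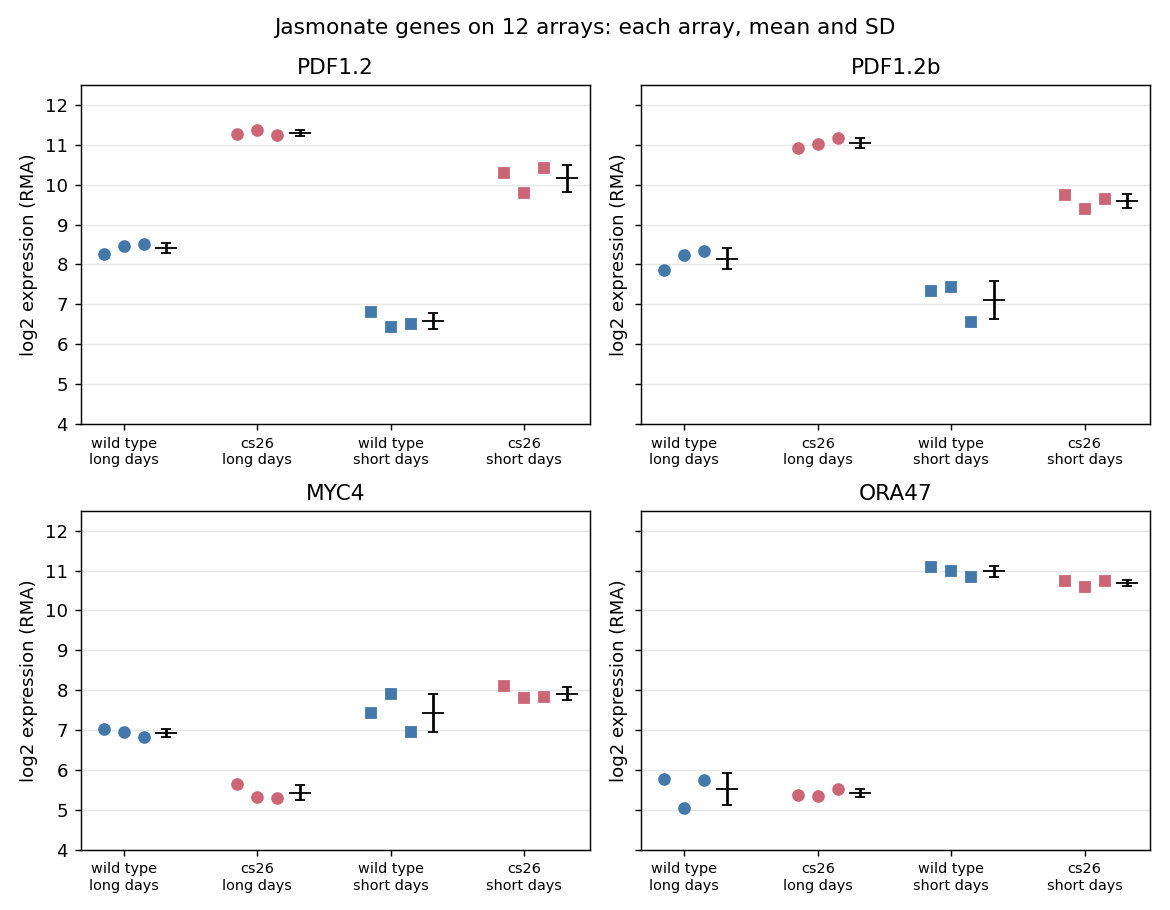
Log2 expression (RMA) of PDF1.2, PDF1.2b, MYC4 and ORA47 on each of the 12 arrays, with group means and SD as black bars beside the points; blue is wild type, red is cs26, circles are long days and squares short days. All 6 cs26 values of both defensin genes lie above all 6 wild-type values, MYC4 is lowest in cs26 in long days (5.31 to 5.65), and ORA47 divides by photoperiod (5.05 to 5.77 against 10.59 to 11.10).

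MYC4 was lower in cs26 than in wild type in long days and not in short days. MYC4 (AT4G17880, chromosome 4) encodes a bHLH factor that JAZ repressors bind and that acts beside MYC2 and MYC3. It read 7.02, 6.94 and 6.82 in wild type in long days and 5.65, 5.33 and 5.31 in cs26. These values do not overlap, and the difference was -1.5 ± 0.192, which is 2.82-fold lower in cs26. The cs26 values here lie close to the array medians, and RMA compresses differences among dim probe sets, so the size is uncertain. In short days it read 7.44, 7.91 and 6.95 in wild type and 8.10, 7.81 and 7.82 in cs26. There the groups overlapped, since replicate 2 of wild type lay above replicates 2 and 3 of cs26, and the difference was 0.48 ± 0.192. It depended on the wild-type array left out, from 0.24 without replicate 3 to 0.72 without replicate 2.

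The photoperiod difference of MYC4 was larger in the mutant. Short-day leaves exceeded long-day leaves by 2.48 ± 0.192 in cs26 (5.43 ± 0.191 SD against 7.91 ± 0.165, n = 3), 5.58-fold and without overlap. The size of this difference rests on the same long-day values close to the array medians. In wild type the difference was 0.51 ± 0.192 (6.93 ± 0.101 against 7.43 ± 0.48), and replicate 3 in short days (6.95) lay within the long-day range. It was 0.75 without that array and 0.27 without replicate 2 of the same group. From the highest, the groups ran cs26 in short days, wild type in short days, wild type in long days and cs26 in long days. The short-day groups overlap, as do the wild-type groups, and cs26 in long days stands below all others. The difference of the cs26 effects, short minus long days, was 1.97 ± 0.271. TRY, a repressor of trichome fate and the 1 measured of 10 trichome and epidermis markers, ran in the same directions. It ranged from 5.95 to 6.48 in wild type and 5.72 to 5.81 in cs26 in long days, and from 6.84 to 7.21 and 7.70 to 8.21 in short days, and its part in the MYC4 values was not tested. TRY fell by 0.48 in cs26 in long days (adjusted p = 0.0392), a call that ended for 5 of the 6 arrays left out in turn, all but replicate 1 of wild type (0.0741 to 0.167). It rose by 0.97 in short days (adjusted p = 0.00101), and its difference of effects was 1.45 (adjusted p = 2.92e-04). In whole leaves, fewer cells of a type and less RNA per cell cannot be told apart.

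ORA47 differed between the photoperiods in both genotypes and by far less between mutant and wild type. ORA47 (AT1G74930, chromosome 1) read 5.77, 5.05 and 5.75 in wild type in long days and 5.37, 5.34 and 5.53 in cs26. In short days it read 11.10, 11 and 10.84 in wild type and 10.73, 10.59 and 10.74 in cs26. All 6 short-day values lay above all 6 long-day values, with gaps of 5.07 in wild type and 5.06 in cs26. In wild type the difference was 5.46 ± 0.161, 43.9-fold (5.52 ± 0.41 SD against 10.98 ± 0.131, n = 3), at place 11 among the rises of all probe sets. In cs26 it was 5.27 ± 0.161, 38.7-fold (5.41 ± 0.102 against 10.69 ± 0.084), at place 7. The long-day values lie close to the array medians, and RMA compresses differences among dim probe sets.

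Between the genotypes the ORA47 difference in short days was -0.29 ± 0.161, and the wild-type values lay above those of cs26 by a gap of 0.10. In long days the genotypes overlapped and the difference was -0.11 ± 0.161. Its size there rests on wild-type replicate 2, where the 25S signal was high and which gave the lowest ORA47 value (5.05). Without that array the long-day difference was -0.35 and the wild-type photoperiod difference 5.22, and the difference of the cs26 effects moved from -0.18 ± 0.228 to 0.05.

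Counted over the 4 genes, 3 did not overlap between genotypes under long days, against 38.2% of all probe sets, with 2 above wild type (18.9% of all) and 1 below (19.4%). Under short days 3 did not overlap, against 29.8%, with 2 above (15% of all) and 1 below (14.8%). Between photoperiods 3 of the 4 did not overlap in wild type, against 55.1% of all probe sets, with ORA47 higher in short days (27% of all) and the defensins lower (28.1%). In cs26 all 4 did not overlap, against 53% of all, with both transcription factors higher (25.7%) and the defensins lower (27.3%). The genes were chosen from these comparisons, and the counts are given beside the background only as a description. Because the PDF1.2b probe set can also bind PDF1.2 transcripts, the 2 defensins may not be separate counts.

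**Figure D2:**
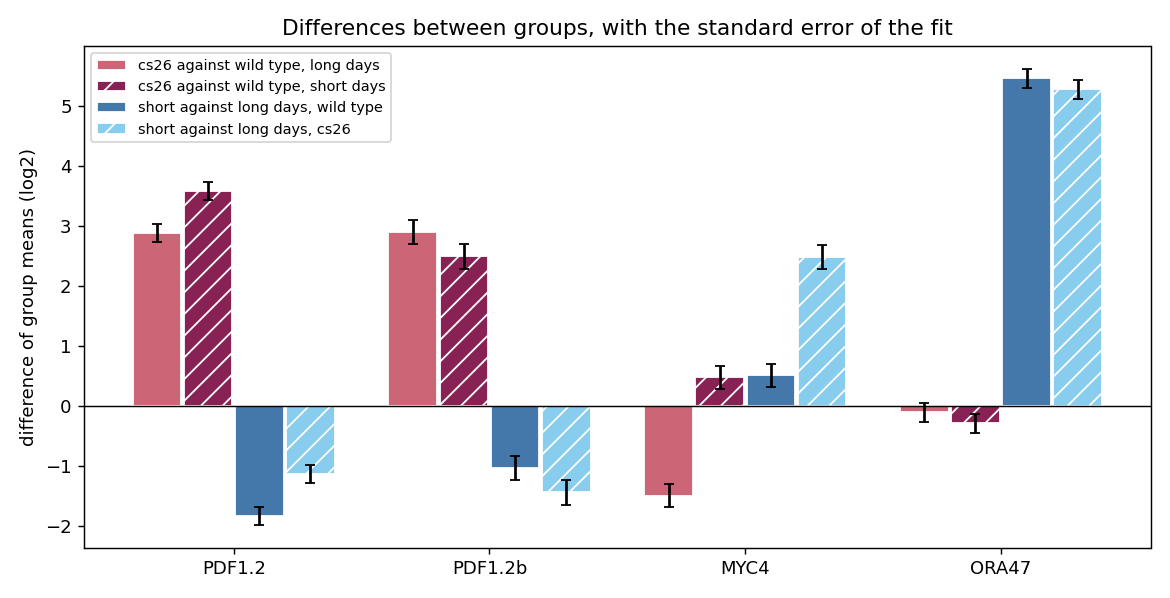
Differences of group means (log2) with the SE of the fit as error bars, for cs26 against wild type in each photoperiod and for short against long days in each genotype. The genotype bars are tall for PDF1.2 (2.88 and 3.58) and PDF1.2b (2.90 and 2.49), the photoperiod bars for ORA47 (5.46 and 5.27), and MYC4 has its largest bar for the photoperiods of cs26 (2.48).

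The rest of the jasmonate pathway was read from 6 lists of 114 loci for synthesis, turnover, receptor and repressors, transcription factors, defensins and thionins, and other outputs. Of these, 26 loci had a probe set naming them alone, and 6 of the 26 are given by locus only because the gene table used holds no name for them. None of the 24 loci for the receptor complex and the JAZ repressors was measured. Each of the 26 was tested with limma over all 22746 probe sets. The lists were chosen with earlier results of these data known, so the shares called are a description. By their mean level 18 of the 26 lie under the median of all probe sets. Of these dim genes 8 were called in some comparison, namely JMT, JRG21, AT2G38240, AT4G00870, PDF1.4, LCR59, BSMT1 and PYK10. The share of all probe sets called in any comparison is not given here, but between the photoperiods of wild type alone it was 44.8%. The count therefore does not set these genes apart. With dim probe sets left out, rises and falls numbered 4 and 2 in long days, 0 and 2 in short days, and 3 and 4 between the photoperiods of wild type, and 0 and 4 for the difference of the cs26 effects. The share of all probe sets called in that fit is not given here, so these counts have no background beside them.

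In long days 8 of the 26 rose in cs26 and 3 fell, so 42.3% were called, against 24.6% of all probe sets (12.8% higher and 11.8% lower). The median difference was 0.04, against -0.01 over all probe sets. PYK10, a beta-glucosidase of endoplasmic reticulum bodies that is abundant in roots, rose by 2.69 ± 0.1 (adjusted p = 1.28e-09), from 3.91 ± 0.22 (SD) in wild type to 6.60 ± 0.06. The wild-type level is that of a dim probe set, where RMA compresses differences and no detection call was used here, so the size of this difference is uncertain. EXPA7, the measured root gene, read 4.62 to 4.88 in wild type and 4.81 to 5.03 in cs26 there. Its part in the PYK10 value was not tested. AT5G05600 rose by 2.3 ± 0.136 (adjusted p = 7.38e-08). JRG21, a jasmonate-regulated gene by its name, rose by 0.88 ± 0.15 (adjusted p = 7.04e-04), and AT2G38240 rose by 0.40 ± 0.131 (adjusted p = 0.0408). AT5G05600, JRG21 and AT2G38240 are 3 of the 4 measured loci of the turnover list (75% called, against 24.6% of all probe sets).

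Among enzymes of jasmonate synthesis in long days, OPCL1, which activates a jasmonate precursor as its CoA ester, rose by 0.52 ± 0.13 (adjusted p = 0.0101). AIM1, a beta-oxidation enzyme, fell by 0.76 ± 0.187 (adjusted p = 0.00895). JMT, the methyltransferase that makes methyl jasmonate, fell by 0.51 ± 0.094 (adjusted p = 0.00135). MYC3, the partner of MYC4, fell by 0.36 ± 0.11 (adjusted p = 0.0313), a smaller difference than that of MYC4 (-1.5). Of 12 defensin and thionin genes beside the PDF1.2 pair 3 rose and 0 fell. That is 25% called, close to the 24.6% of all probe sets (12.8% higher and 11.8% lower). The 3 were the thionin THI2.2 (0.80 ± 0.121, adjusted p = 2.99e-04), PDF1.4 (0.56 ± 0.148, adjusted p = 0.0143) and PDF2.2, LCR69 in the gene table (0.45 ± 0.124, adjusted p = 0.0178). The other 9, PDF1.1 and THI2.1 among them, had differences from -0.18 to 0.21 and were not called.

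Several of these long-day calls were near the threshold. Leaving out 1 array ended the call of AT2G38240 for 5 of the 6 arrays (all but replicate 1 of wild type, adjusted p from 0.0661 to 0.138). It ended that of MYC3 for replicates 2 and 3 of either genotype (0.0553 to 0.138) and that of PDF2.2 for replicates 2 and 3 of wild type and 1 and 2 of cs26 (0.0526 to 0.0791). It ended that of PDF1.4 for replicates 1 and 3 of wild type and 2 of cs26 (0.0514 to 0.0711). Without replicate 3 of wild type or replicate 2 of cs26 the number of rises was 5.

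In short days 1 of the 26 rose and 5 fell, so 23.1% were called, against 16.7% of all probe sets (8.89% higher and 7.84% lower), with a median of -0.08 against 0 over all. JMT rose by 0.83 ± 0.094 (adjusted p = 8.11e-05), from 4.54 ± 0.06 to 5.37 ± 0.11. JRG21 fell by 1.07 ± 0.15 (adjusted p = 4.03e-04), AT5G05600 by 0.97 ± 0.136 (adjusted p = 3.89e-04) and AT2G38240 by 0.76 ± 0.131 (adjusted p = 0.00168). BSMT1, which methylates benzoate and salicylate, fell by 0.66 ± 0.143 (adjusted p = 0.00709), from 4.47 ± 0.37 to 3.80 ± 0.10. PDF2.3 fell by 0.36 ± 0.101 (adjusted p = 0.0265), a call that ended when wild-type replicate 1 or 2 or cs26 replicate 2 was left out (0.0844 to 0.0941). PDF2.3 was the only 1 of the 12 other defensin and thionin genes called in this photoperiod (8.33%, against 16.7% of all probe sets).

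AT5G05600, JRG21 and AT2G38240, all from the turnover list, were thus called above wild type under long days and below it under short days. JMT was called in the reverse directions. Of the 26, 0 were called in the same direction in both. The share of all probe sets called in both photoperiods is not given here, so these counts have no background to be read against. The PDF1.2 pair, picked with these data in view, was higher in cs26 in both. The difference of the cs26 effects, short minus long days, was called for 10 of the 26 (1 higher and 9 lower, 38.5%, against 27.6% of all probe sets, of which 14.8% higher and 12.7% lower). It was -3.27 ± 0.192 for AT5G05600 (adjusted p = 6.71e-08), -2.71 ± 0.142 for PYK10 (adjusted p = 2.45e-08) and -1.95 ± 0.212 for JRG21 (adjusted p = 1.86e-05). It was 1.34 ± 0.133 for JMT (adjusted p = 8.32e-06). For MYC3 it was 0.30 ± 0.156 and was not called (adjusted p = 0.189), against 1.97 for MYC4. Leaving out long-day replicate 2 of either genotype, or short-day replicate 1 of wild type, left 6 lower in place of 9, and without short-day replicate 3 of either genotype 2 were higher.

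**Figure D3:**
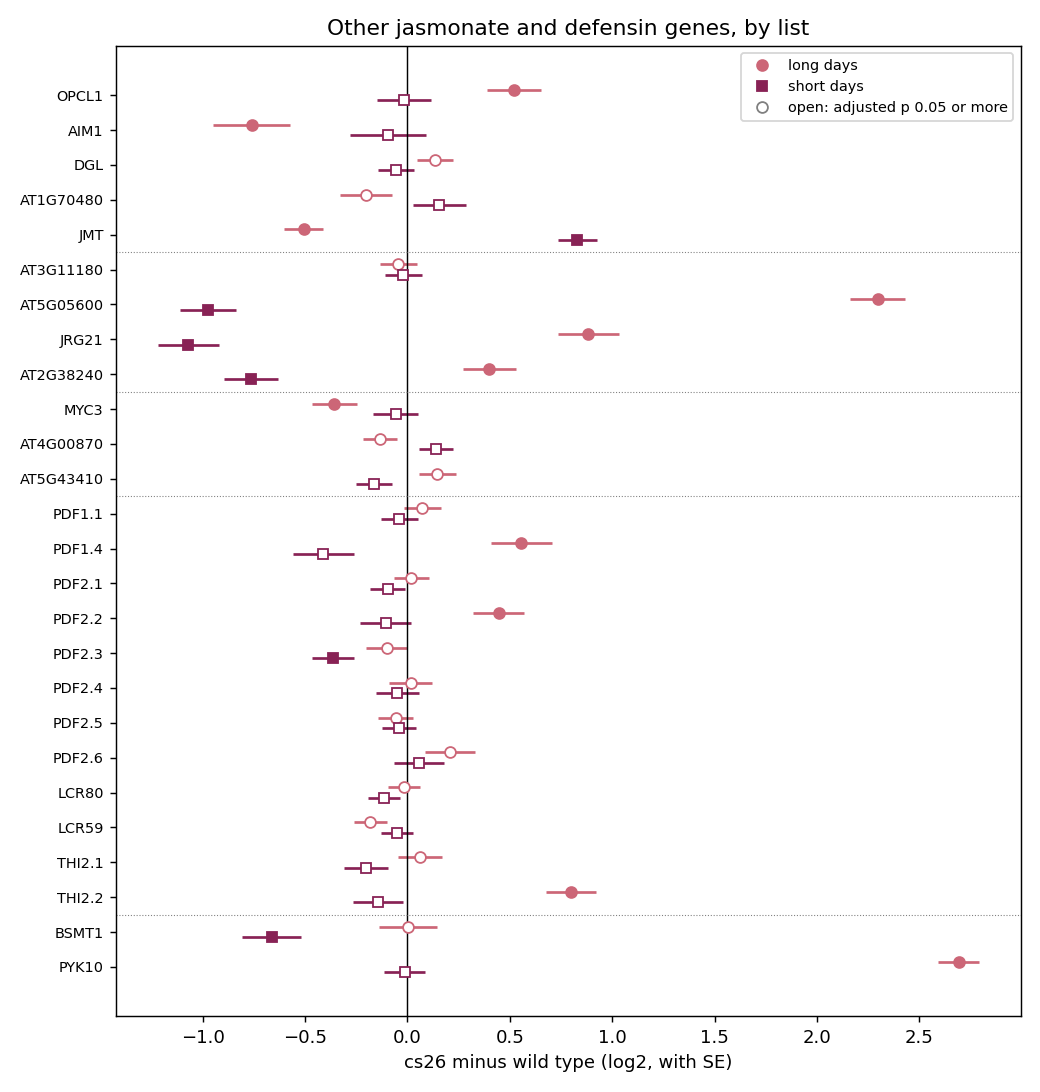
Difference between cs26 and wild type (log2, bars are SE of the fit) for the 26 other measured loci, in long days (circles) and short days (squares), with dotted lines between the lists for synthesis, turnover, transcription factors, defensins and thionins, and other outputs. Filled symbols passed an adjusted p under 0.05; JRG21, AT5G05600 and AT2G38240 lie right of 0 in long days and left of it in short days, JMT the reverse, and PYK10 stands at 2.69 in long days.

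In wild type 7 of the 26 were higher and 6 lower in short than in long days, 50% against 44.8% of all probe sets (21.8% higher and 23% lower). The defensin PDF2.2 fell by 2.75 ± 0.124 (adjusted p = 2.56e-09), from 10.06 ± 0.15 to 7.31 ± 0.16, and PDF2.3 by 0.82 ± 0.101 (adjusted p = 2.95e-05), the same direction as the PDF1.2 pair. THI2.2 rose by 1.4 ± 0.121 (adjusted p = 1.19e-06) and PDF1.4 by 0.72 ± 0.148 (adjusted p = 0.0017). OPCL1 rose by 0.93 ± 0.13 (adjusted p = 9.09e-05) and AIM1 fell by 1.15 ± 0.187 (adjusted p = 2.94e-04). MYC3 fell by 0.67 ± 0.11 (adjusted p = 3.26e-04), while MYC4 was 0.51 higher. AT5G05600 rose by 2.18 ± 0.136, JRG21 by 1.06 ± 0.15, AT2G38240 by 0.79 ± 0.131 and BSMT1 by 0.75 ± 0.143 (adjusted p = 0.001 or lower for each). LCR59 (-0.21) was called at an adjusted p of 0.0486 that any 1 wild-type array left out ended (0.0508 to 0.153), and AT4G00870 fell by 0.39 ± 0.085.

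Of 17 ethylene loci 2 were measured. EIN3, the factor that activates ERF genes in the branch that leads to PDF1.2, measured -0.51 ± 0.184 in long days (adjusted p = 0.0643) and -0.03 in short days, and RTE1, a regulator of an ethylene receptor, measured -0.10 and -0.34 (adjusted p = 0.064). The long-day value of EIN3 rested on the cs26 arrays, with -0.72 (adjusted p = 0.0063) without replicate 1 and -0.26 (adjusted p = 0.245) without replicate 2. It was called with dim probe sets left out (adjusted p = 0.0377) and with a trended and robust prior (adjusted p = 0.0362). Of 23 salicylate loci 3 were measured. The glutaredoxin gene GRX480, which represses PDF1.2 when overexpressed, averaged 5.66 in wild type and 8.21 in cs26 in long days, and 8.4 and 6.83 in short days. WRKY53 ran 7.15, 9.63, 10.15 and 8.13 over the same 4 groups, and SAG101 5.23, 5.73, 5.98 and 5.44. Between genotypes GRX480 and WRKY53 were higher in cs26 in long days (2.55 ± 0.127 and 2.48 ± 0.124, adjusted p = 1.61e-08 for each). They were lower in short days (-1.57, adjusted p = 6.12e-06, and -2.02, adjusted p = 5.33e-07). SAG101 was not called in either (adjusted p = 0.0951 and 0.0885). In wild type GRX480, WRKY53 and SAG101 were higher in short days (2.74, 3.00 and 0.75), where the defensins were lower. The defensins were higher in cs26 in both photoperiods. Any link of these genes to the defensins was not tested. Of 34 genes with bHLH in their symbol or synonyms in the gene table, 7 were measured. This match of names leaves out MYC3 and MYC4. Among the 7, 2 fell and 0 rose in long days, a share of 28.6% against 24.6% of all probe sets. bHLH34 fell by 0.76 ± 0.115 (adjusted p = 2.97e-04) and bHLH115 by 0.61 ± 0.1 (adjusted p = 5.25e-04). In short days 2 rose and 0 fell (28.6%, against 16.7%), where bHLH34 rose by 0.55 ± 0.115 (adjusted p = 0.00593) and BHLH101 by 0.75 ± 0.186 (adjusted p = 0.0151, and 0.0591 without replicate 3 of cs26).

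Likeness of pattern was measured as Pearson's r over the 12 arrays, among 2375 probe sets that name 1 gene and whose group means span at least 1 log2 unit. The arrays form 4 groups, so a high r mostly says that the group means run alike. PDF1.2 and PDF1.2b had an r of 0.976 with each other, and MYC4 and ORA47 an r of 0.781. The PDF1.2b probe set can also bind PDF1.2 transcripts, so the defensin pair may not be separate measurements. The genes most like PDF1.2 were plastid rbcL (0.958), AT4G38100 (0.956), AT2G20940 (0.923), plastid accD (0.914) and AT2G14880 (0.899). For PDF1.2b they were AT2G20940 (0.953), AT4G38100 (0.933), rbcL (0.925), AT2G44120 (0.91) and AT4G39820 (0.898). AT4G38100, which the gene table also lists as CURT1D, for thylakoid curvature, averaged 7.73, 8.53, 7.39 and 8.08 over wild type and cs26 in long days and then in short days, a narrower span than the defensins. Plastid rbcL averaged 10.03, 13.97, 7.50 and 13.37 over the same groups, a wider one.

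The genes most like MYC4 were AT1G73390 and AT1G26920 (both 0.979), AT5G61820, AT1G32520 and AT1G79520 (all 0.978). AT1G79520 averaged 6.87, 5.08, 7.81 and 8.30 over wild type and cs26 in long days and wild type and cs26 in short days, the same order of groups as MYC4. Those most like ORA47 were AT1G55960 (0.998), AT2G20670 (0.996), AT1G73480 (0.994), AT1G44000 (0.993) and AT4G17840 (0.992). AT2G20670 came closest in span, with 4.50 and 4.61 in long days and 9.60 and 9.07 in short days.

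**Figure D4:**
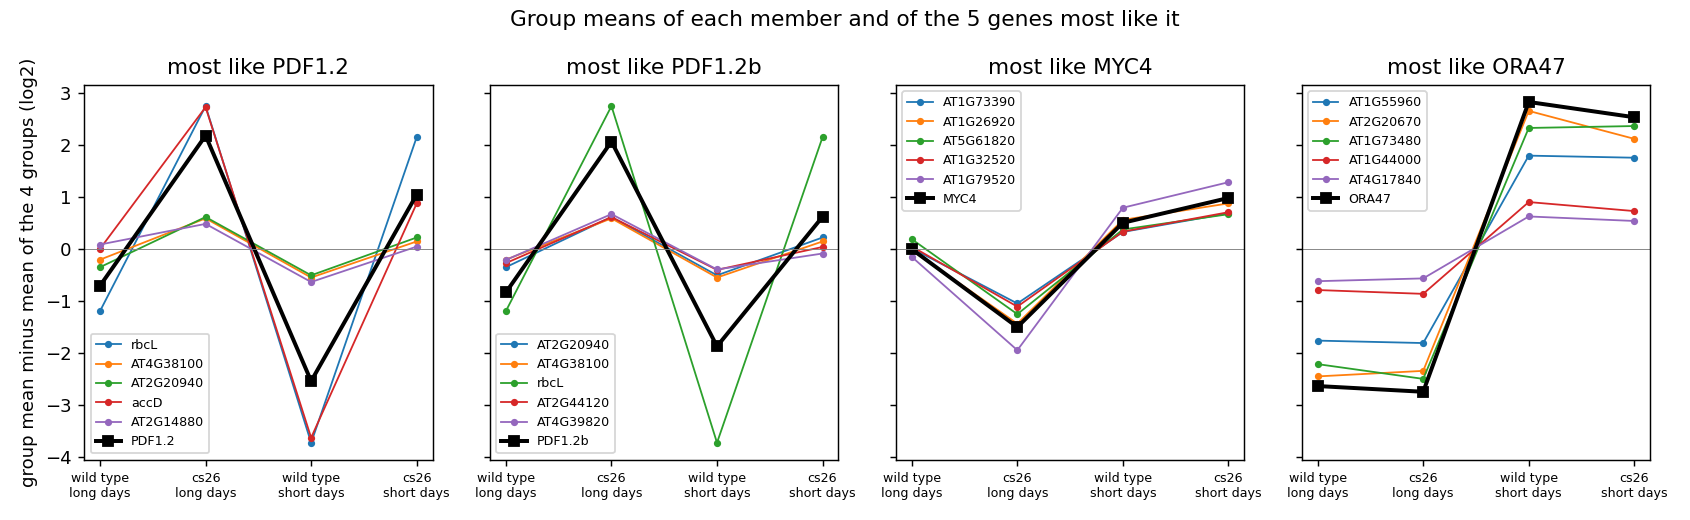
Group means (log2, minus the mean of the 4 groups) of each gene (black) and of the 5 genes with the highest Pearson r to it over 12 arrays (colours). rbcL and accD swing more widely than PDF1.2, the other genes like the defensins less so; the genes like MYC4 all dip in cs26 in long days, and those like ORA47 divide by photoperiod.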

How the data were processed

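Leaf RNA of 12 samples was labelled with biotin and hybridised to 1 Affymetrix ATH1 array each. The deposited values are log2 expression, made by the authors with RMA and the affy package, per the submitters' processing notes, with versions not given in the sources used here. The 64 control probe sets were left out. Of the 22746 others, 13513 name 1 gene in the platform annotation, and 13436 of these were found in the TAIR10.1 gene table, used for names and neighbours only. Groups came from the sample titles. A single linear model was fitted to the 12 arrays, with 1 mean for each group (limma 3.58.1, R 4.3.3, lmFit and eBayes, 8 residual and 4.32 prior degrees of freedom), with Benjamini-Hochberg adjustment over the 22746 probe sets and a call at an adjusted p under 0.05. On simulated data of 22746 probe sets for the long-day comparison, 92 of 100 changes of 1 log2 unit and 100 of 100 of 2 units were recovered, with 9 false calls. A gene with several probe sets was represented by the brightest. Genes named beside the 4 are list genes called in any comparison, at most 8 a list, and the 5 genes most like each of the 4, with uncalled ones as examples. The 4 genes and the lists were chosen with earlier results of these data known. Whether replicates came from separate plants or pools is not given, so p-values measure the spread between these samples. Alternatives were quantile normalization, leaving out dim probe sets, fits to the compared groups only, another prior, array weights, a replicate block and leaving out arrays.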

Additional observations from a re-analysis of the deposited data

Results flagged for a closer look

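The effect of cs26 differed between short and long days, by the interaction term of the limma model, for 16 of the 45 genes measured in all lists, cell type markers included. That is 35.6%, against 27.6% of all probe sets (14.8% higher and 12.7% lower). As the lists were chosen with earlier results known, this share is a description. Higher in short days relative to long days were 4, the trichome gene TRY (difference of effects 1.45), JMT (1.34), bHLH34 (1.31) and bHLH115 (0.78). Lower were 12, namely WRKY53 (-4.50), GRX480 (-4.12), AT5G05600 (-3.27), PYK10 (-2.71), JRG21 (-1.95), AT2G38240 (-1.16), SAG101 (-1.04), PDF1.4 (-0.97), THI2.2 (-0.94), BSMT1 (-0.67), PDF2.2 (-0.55) and OPCL1 (-0.54). Leaving out 1 array ended the call of OPCL1 for 10 of the 12 arrays (adjusted p up to 0.108), that of PDF2.2 for 7 (up to 0.0817) and that of BSMT1 for 6 (up to 0.0642).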

How the results depend on the processing

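The differences of PDF1.2, PDF1.2b, MYC4 and ORA47 between groups moved by less than 1 SD (replicate SD, pooled over the groups compared) for 19 of 20 values, under quantile normalization, array weights, the replicate block and without each array of the groups compared. The exception was the difference of the cs26 effects on ORA47, from -0.31 to 0.10 with arrays left out, where the highest value lacked both long-day wild-type replicate 2 and short-day cs26 replicate 2, an alternative chosen after seeing the data. Without wild-type long-day replicate 2 alone, the ORA47 difference in long days moved from -0.11 to -0.35 and that between wild-type photoperiods from 5.46 to 5.22. With dim probe sets left out, 8 of the 26 jasmonate and defensin loci were kept, so the counts of rises and falls were 4 and 2 in long days, 0 and 2 in short days, 0 and 4 for the difference of the effects, and 3 and 4 for the photoperiods of wild type. No share over all probe sets is given for that fit. With array weights 2 were higher for the difference of the effects. Without 1 array, rises numbered 5 to 7 in long days and 1 to 2 for the difference of the effects. Of 72 calls of single list and marker genes, 55 held under every setting that gave them a value, 17 were lost under at least 1, and 0 reversed, while 19 were gained. Whether the replicate numbers mark samples grown or handled together is not given. Between groups, deviations of same-numbered arrays correlated from -0.31 to 0.162 (median -0.0549). Those of arrays with different numbers correlated from -0.355 to 0.421 (median 0.0462). Such correlations cannot settle how samples were handled. With the replicate block the calls of MYC3 (adjusted p = 0.0562) and TRY (0.0637) in long days, OPCL1 for the difference (0.0709), LCR59 (0.0552) and ILR3 (0.0673) in wild type were lost, and those of SAG101 in long (0.0161) and short days (0.0185) and PDF1.4 in short days (0.0264) were gained.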
